A study of Mus musculus with 47 samples.

Results

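The matrix metalloproteases (MMPs), the ADAMTS proteases and the TIMPs make up 46 of the 22632 genes measured by RNA sequencing in mouse cells undergoing reprogramming. They were chosen by gene symbol alone: 23 Mmp genes, 19 Adamts genes and the 4 Timp genes. Of the 46 genes, 34 reached 1 RPKM (read density per kilobase of transcript, corrected for library depth) in at least 1 library, 31 had a mean of at least 1 RPKM in at least 1 group, and 17 were at or above 1 RPKM in all 47 libraries. Secondary mouse embryonic fibroblasts, which are fibroblasts that respond to doxycycline, had been treated with the drug to induce reprogramming, and 4 clones named SC and 4 clones named SI were followed. Both kinds of clone were sampled after 14 days with doxycycline (d14), 21 days (d21), 21 days followed by 1 day without it (d22), 21 days followed by 2 days without it (d23) and 27 days with it (d27). The SC clones were also sampled as iPS cells, after 21 days with and 6 days without doxycycline. Feeder cells, embryonic fibroblasts that received no doxycycline, were represented by 3 libraries. Each clone group had 4 libraries, 1 per clone, which makes 12 groups in all. The labels give no strain and no induced factor, and they do not say whether the clones were grown on feeder cells. Nothing in the labels ties the 3 feeder libraries to separate cultures, so the spread between them may be technical. The p-values against feeders rest on the spread within the feeder libraries and within the clone libraries together.

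MMPs are zinc-dependent enzymes that cut collagens, proteoglycans and other extracellular proteins; most are secreted, and the membrane-type members stay on the cell surface. ADAMTS proteases are secreted relatives that cut proteoglycans such as aggrecan and versican or trim procollagens. TIMPs are the secreted inhibitors of these enzymes, and fibroblasts are a main source of all 3 kinds of protein in connective tissue. During reprogramming, fibroblasts lose their mesenchymal program and take on an epithelial and then a pluripotent one.

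The labels were checked against marker genes. The summed level of 10 fibroblast markers, among them Col1a1, Thy1 and Pdgfra, was 3385 to 3630 RPKM in the feeders, 349 to 888 in the iPS libraries, 389 to 2300 at SC d23 and 2295 to 4399 at SI d23. The summed level of 8 pluripotency markers was 0.25 to 0.52 RPKM in the feeders, 625 to 1061 in the iPS libraries and 2.47 to 21.0 at SI d23. Some libraries stood apart from the others of their group: SI clone 3 at d21, d22 and d23 had fibroblast sums of 1769, 3827 and 4399 RPKM, SC clone 2 had 888 as iPS cells and 2300 at d23, and at SI d14 clones 2 and 3 had 2890 and 2574 against 978 and 929 for clones 1 and 4. No pair of libraries held identical values. In 42 libraries the steps between low values gave a depth of about 26.8 to 97.6 megareads, up to a whole multiple. Because these are bulk samples, fewer cells of a type and less RNA per cell cannot be told apart.

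Several MMP genes lie side by side on chromosome 9, and the promoters of some of them hold the same short motif. RefSeq promoter entries (GRCm38.p6) matched 32 of the 46 genes. The motif TGAGTCA, the site that AP-1 factors (Fos and Jun proteins) are known to bind, was searched on both strands in the 250 bases before each start. It was found in 7 of 18 matched Mmp genes (Mmp1a, Mmp1b, Mmp3, Mmp7, Mmp10, Mmp12 and Mmp13), in 0 of 10 Adamts genes and in 0 of 4 Timp genes, against 4.46% of 32851 promoter entries. These 7 genes were among the 10 matched genes of the chromosome 9 cluster, whose genes span chr9:7272514-7699585 in GRCm38; the other 3, Mmp8, Mmp20 and Mmp27, had no match. The motif TATAAA was found in 9 of the 32 genes, among them Mmp21 and Adamts1 outside the cluster, against 12.4% of all entries. The 130 bases just before the RefSeq start of 6 abundant members are shown. Capitals mark the 2 motifs on either strand (TGACTCA is TGAGTCA read on the other strand). Whether the motifs bear on the levels of these genes was not tested.
Mmp3 (chr9:7445692-7445821, plus strand): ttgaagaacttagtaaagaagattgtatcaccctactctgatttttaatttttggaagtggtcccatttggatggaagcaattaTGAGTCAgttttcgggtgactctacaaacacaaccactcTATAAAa
Mmp10 (chr9:7502212-7502341, plus strand): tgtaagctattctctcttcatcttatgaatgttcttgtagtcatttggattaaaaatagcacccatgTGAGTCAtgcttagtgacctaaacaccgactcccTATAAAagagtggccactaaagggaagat
Mmp13 (chr9:7272384-7272513, plus strand): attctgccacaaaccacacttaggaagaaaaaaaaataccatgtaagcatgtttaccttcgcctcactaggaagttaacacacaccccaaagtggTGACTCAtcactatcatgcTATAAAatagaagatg
Mmp14 (chr14:54431468-54431597, plus strand): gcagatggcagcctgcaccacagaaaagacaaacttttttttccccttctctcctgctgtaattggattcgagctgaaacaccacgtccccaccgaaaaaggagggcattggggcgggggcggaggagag
Timp1 (chrX:20870036-20870165, plus strand): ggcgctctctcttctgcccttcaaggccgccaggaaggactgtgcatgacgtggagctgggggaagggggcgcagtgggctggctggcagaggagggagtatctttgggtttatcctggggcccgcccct
Timp3 (chr10:86300282-86300411, plus strand): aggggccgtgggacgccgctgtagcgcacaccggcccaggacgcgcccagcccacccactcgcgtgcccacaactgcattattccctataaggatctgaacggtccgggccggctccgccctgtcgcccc
In GENCODE M21 (GRCm38), Mmp3 (ENSMUSG00000043613) spans chr9:7445822-7455975, Mmp14 (ENSMUSG00000000957) chr14:54431612-54445364, Timp1 (ENSMUSG00000001131) chrX:20870166-20874735, Timp3 (ENSMUSG00000020044) chr10:86300372-86349506, Adamts4 (ENSMUSG00000006403) chr1:171250421-171260637 and Adamts7 (ENSMUSG00000032363) chr9:90163069-90208071, all on the plus strand. These starts are GENCODE's and can differ from the RefSeq starts that set the windows: the Timp3 window runs past the GENCODE start, and the Mmp14 window ends before it. The 3 windows from the cluster hold both motifs, and those of Mmp14, Timp1 and Timp3 hold neither; a match describes letters in a window and not a bound site.

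Timp1, which encodes a secreted inhibitor of most MMPs, was the most abundant member in feeders. It was listed at 1000.45, 1003.66 and 922.88 RPKM in the feeders, at 143, 282, 107 and 128 RPKM in the iPS libraries of SC clones 1 to 4, and at 348, 584, 543 and 528 RPKM at SI d23. Every clone library lay below every feeder library. Timp2, whose protein helps MMP14 to activate pro-MMP2, had a mean of 222.7 ± 2.03 RPKM in feeders (SD, n = 3), 50.3 ± 26.4 in iPS cells (SD, n = 4) and 170.7 ± 77.6 at SI d23 (SD, n = 4). At SI d23 Timp2 was at 117, 149, 286 and 131 RPKM in SI clones 1 to 4, so clone 3 alone was above the feeders. Timp3, whose protein binds to the matrix and also inhibits several ADAMTS enzymes, was lower in iPS cells like Timp1 and Timp2 but stood apart from them at SI d23 against feeders. Its levels were 70.9, 61.9 and 66.9 RPKM in the feeders, 4.19, 10.3, 4.52 and 4.48 in the iPS libraries, and 135, 137, 190 and 135 at SI d23. The iPS libraries were all below and the SI d23 libraries all above the feeders. Timp4 stayed below 1 RPKM in every library, with a highest value of 0.53.

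**Figure D1:**
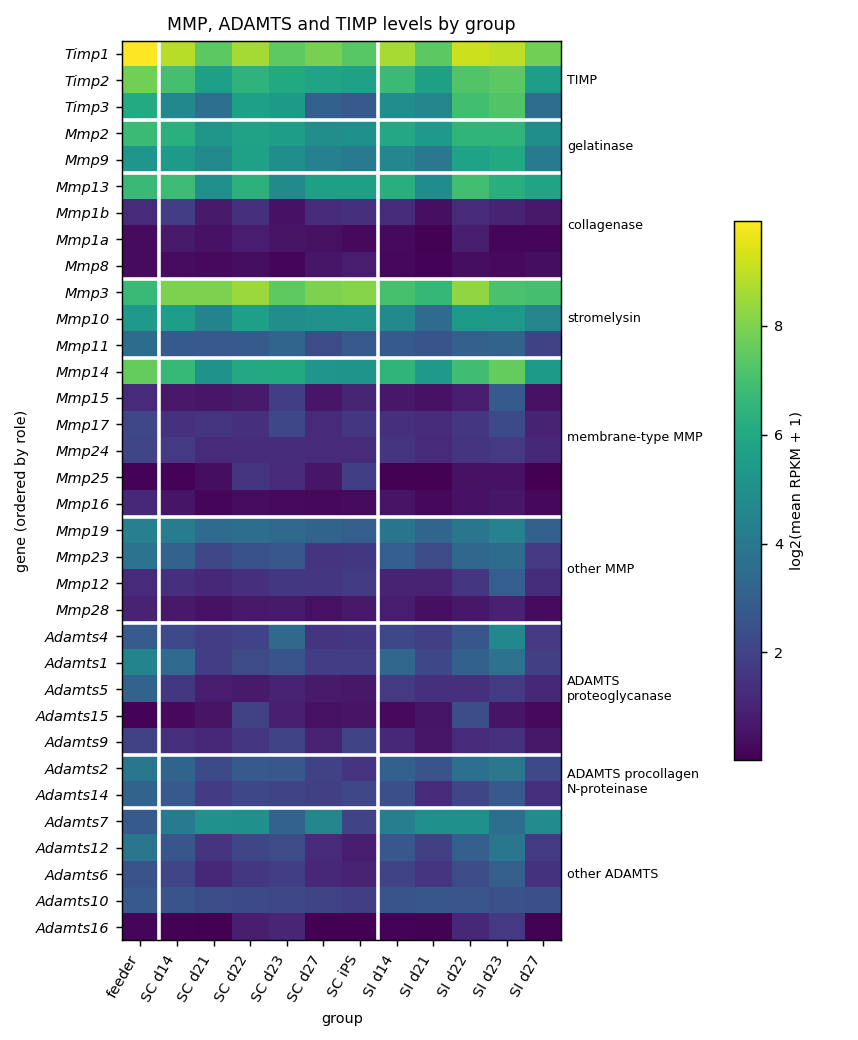
Heat map of the 34 genes that reached 1 RPKM, ordered by role (rows), in the 12 groups (columns); colour is log2(mean RPKM + 1) of 3 feeder or 4 clone libraries. Timp1 and Timp2 are brightest in feeders, and Mmp14 is about equally bright in feeders and at SI d23. Mmp3 is brighter in every SC group than in feeders.

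The secreted MMPs include the gelatinases, the collagenases and the stromelysins. Mmp2 (gelatinase A) averaged 108.0 ± 3.86 RPKM in feeders (SD, n = 3), 31.2 ± 12.1 in iPS cells and 89.7 ± 40.9 at SI d23 (both SD, n = 4). At SI d23 Mmp2 was at 73.2, 72.5, 150.65 and 62.4 RPKM in SI clones 1 to 4, so clone 3 alone was above the feeders. Mmp9 (gelatinase B) was listed at 32.1, 38.4 and 36.3 RPKM in the feeders, at 8.20, 8.96, 22.0 and 19.7 at SI d21, and at 44.2, 80.4, 50.2 and 85.0 at SI d23, so that the SI libraries crossed from below all feeders to above them within 2 days. Mmp13 (collagenase 3) had its highest group mean at SI d22, 120.0 ± 51.6 RPKM, and its lowest at SC d23, 25.6 ± 16.8 (both SD, n = 4), against 106.1 ± 6.82 in feeders (SD, n = 3). The other collagenases were low: the highest group means were 2.54 RPKM for Mmp1b, 0.80 for Mmp1a and 0.75 for Mmp8. Mmp1a and Mmp1b are close copies, and how reads shared by them were counted is not given in the sources used here, so their values are uncertain.

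Mmp3 (stromelysin 1, a broad enzyme that also activates other pro-MMPs) was the most abundant protease of the family in iPS cells. Its levels were 106, 95.2 and 115 RPKM in the feeders, 263, 460, 182 and 201 in the iPS libraries, and 403, 296, 338 and 352 at SC d22. Each of the 24 SC libraries lay above the 3 feeders. In SI clones the levels spread across the feeder range, from 29.0, 66.6, 157 and 136 RPKM at d21 to 211, 233, 453 and 337 at d22. Mmp10 (stromelysin 2) averaged 39.5 ± 1.89 RPKM in feeders (SD, n = 3), 48.0 ± 11.1 at SC d22 and 10.2 ± 6.95 at SI d21 (both SD, n = 4). Mmp11 (stromelysin 3), which is processed inside the cell by furin, was highest in feeders at 10.3 ± 0.607 RPKM (SD, n = 3) and lowest at SI d27 at 2.96 ± 0.266 (SD, n = 4).

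Of the membrane-type MMPs, Mmp14 (MT1-MMP, which cuts fibrillar collagen and activates pro-MMP2) was by far the most abundant. It was listed at 192, 196 and 193 RPKM in the feeders, 30.8, 58.7, 23.8 and 25.7 in the iPS libraries, and 174, 198, 226 and 176 at SI d23. The iPS libraries lay below all feeders, and the SI d23 libraries lay on both sides of them. Mmp15 stood at 1.303 ± 0.0808 RPKM in feeders (SD, n = 3) and at 10.7, 5.80, 0.75 and 6.92 RPKM in SI clones 1 to 4 at d23, where clone 3 alone was below the feeders. Mmp25, a membrane-type enzyme known from leukocytes, was at 0.07, 0.09 and 0.10 RPKM in the feeders and at 1.34, 1.3, 3.37 and 4.56 RPKM in the iPS libraries. Mmp17, Mmp24 and Mmp16 had highest group means of 3.77, 3.21 and 1.18 RPKM. Among the other MMPs, Mmp12 (macrophage elastase) was at 1.40, 1.34 and 1.38 RPKM in feeders and at 3.45, 8.16, 7.01 and 8.74 at SI d23, above all feeders. The summed level of 6 leukocyte markers was 173 to 186 RPKM in feeders, 169 to 322 at SI d23 and 36.5 to 64.5 in iPS cells, with none of the 6 at 0; the part of leukocytes in the Mmp9, Mmp12 and Mmp25 values was not tested.

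**Figure D2:**
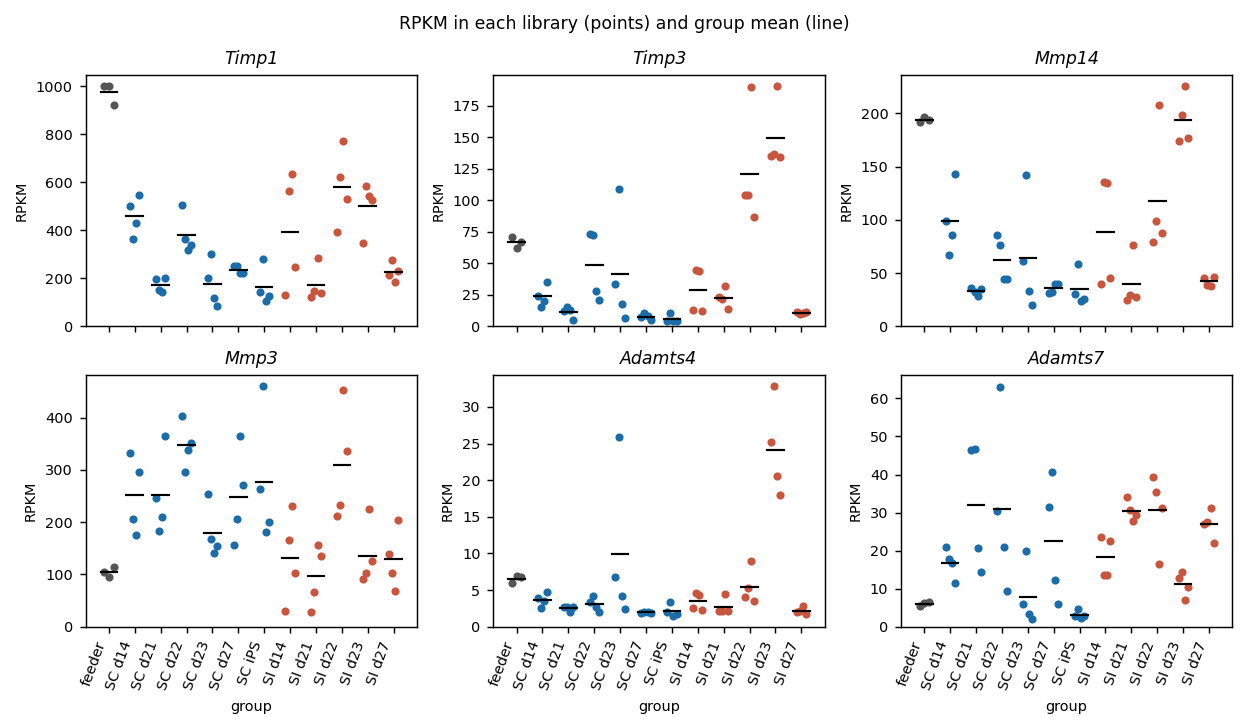
RPKM of Timp1, Timp3, Mmp14, Mmp3, Adamts4 and Adamts7 in every library (points; grey feeder, blue SC, red SI) with the group mean (line), each panel on its own linear axis from 0. Timp3 and Adamts4 are highest at SI d23, and the mean of Adamts7 is above that of feeders in each group with doxycycline and at d22, although SC clone 4 at d27 (5.88 RPKM) lies in the feeder range.

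The ADAMTS genes were less abundant than the leading MMPs. Among those that reached 1 RPKM, Adamts2, Adamts4, Adamts6, Adamts12 and Adamts16 had their highest group means at SI d23. Adamts4 (aggrecanase 1) was at 5.93, 6.89 and 6.84 RPKM in feeders, at 2.13, 2.18, 4.40 and 2.12 at SI d21, and at 25.2, 32.8, 20.5 and 17.99 at SI d23. At SC d23 it was at 6.84, 25.9, 4.25 and 2.45 RPKM, with clone 2 alone in the range of the SI clones. Adamts7, which cuts cartilage oligomeric matrix protein, ran the other way. Its levels were 5.54, 6.23 and 6.51 RPKM in feeders, 34.0, 30.6, 27.7 and 29.4 at SI d21, 12.7, 14.3, 6.98 and 10.5 at SI d23, and 2.90, 4.64, 2.28 and 2.75 in iPS cells. The libraries at SI d21 were all above, and the iPS libraries all below, the feeders. The proteoglycan-cutting Adamts1 and Adamts5 were highest in feeders, at 21.7 ± 1.13 and 7.99 ± 0.497 RPKM (SD, n = 3), and were at 2.57 ± 1.54 and 0.56 ± 0.23 in iPS cells (SD, n = 4). Of the procollagen N-proteinases, Adamts2 averaged 14.1 ± 0.794 RPKM in feeders and Adamts14 8.10 ± 0.981 (both SD, n = 3), against 1.92 ± 0.883 and 3.42 ± 1.10 in iPS cells (both SD, n = 4). Adamts15 was at 0.07, 0.07 and 0.11 RPKM in feeders and at 5.62, 5.00, 0.53 and 5.76 at SI d22, with clone 3 apart from the others. Adamts16 was above 1 RPKM in 9 libraries, among them all 4 at SI d23 (2.20, 3.04, 1.35 and 2.18), and was at 0.09 to 0.16 in feeders. The 12 members that never reached 1 RPKM were Timp4, Mmp7, Mmp20, Mmp21, Mmp27, Adamts3, Adamts8, Adamts13, Adamts17, Adamts18, Adamts19 and Adamts20, with highest single values between 0.03 and 0.74.

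Compared with feeders, over 50% of the tested members were lower in 8 of the 11 clone groups; the exceptions were SI d14, SI d22 and SI d23, with 35.7%, 30% and 13.3% lower. The test was limma on log2(RPKM + 1) over all genes that passed the filter (at least 1 RPKM in as many libraries as the smaller group has), with Benjamini-Hochberg adjusted p under 0.05 as a call; all 11 comparisons share the same 3 feeder libraries. A member could pass the filter through the group where it was high, so the 28 to 30 tested are not the whole family. In iPS cells 3 of 29 tested members were higher and 22 lower (41.2% of all genes tested were higher and 38.8% lower). At SC d14, d21, d22, d23 and d27, the numbers lower were 18 of 28, 25 of 28, 19 of 30, 16 of 29 and 23 of 28 (24.9%, 29.5%, 25.3%, 25.5% and 31.5% of all genes), and the numbers higher were 3, 2, 5, 2 and 1 (40.8%, 45%, 39%, 36.8% and 43.5%). At SI d14, d21, d22, d23 and d27, those lower were 10 of 28, 24 of 28, 9 of 30, 4 of 30 and 25 of 28 (12%, 27.7%, 17.1%, 14.6% and 34.6% of all genes), and those higher were 1, 1, 5, 7 and 1 (32.1%, 42.9%, 37%, 21.2% and 50.6%). In both directions together, 65.8%, 74.5%, 64.3%, 62.3%, 75% and 79.9% of all genes were called at SC d14, d21, d22, d23 and d27 and in iPS cells, and 44.1%, 70.7%, 54.1%, 35.8% and 85.2% at SI d14, d21, d22, d23 and d27. The median log2 difference of the tested members ran from -1.36 at SI d21 to -0.07 at SI d23, with -1.15 in iPS cells. Over all genes tested the median lay between 0.06 and 0.23, and rescaling the libraries by median ratios changed none of these counts of members by over 1.5 times.

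**Figure D3:**
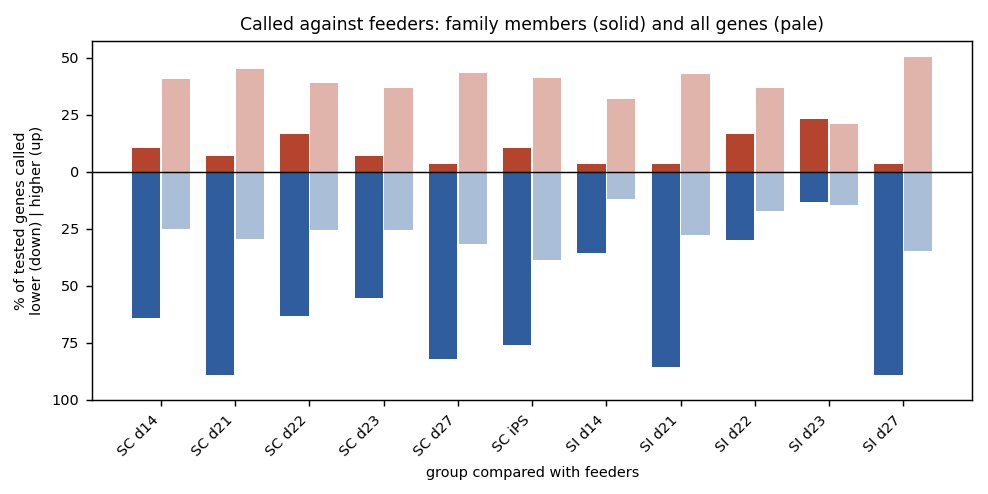
Percent of tested genes called higher (upward bars) and lower (downward bars) than feeders in each clone group, for the family members (solid) and all genes (pale). The solid downward bars are longer than the pale ones in every group but SI d23, where 4 of 30 members were lower.

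In iPS cells the 3 members with the largest decreases against feeders were Timp3, Adamts12 and Adamts1. Timp3 fell by 3.38 on the log2 scale (standard error 0.257, limma adjusted p = 8.7e-06), Adamts12 fell by 3.13 and Adamts1 fell by 2.75; Adamts12 encodes a protease that, like Adamts7, cuts cartilage oligomeric matrix protein. The decreases of other ADAMTS genes ranged down to that of Adamts7 (-0.80). All 3 tested TIMP genes were lower, as were both gelatinases and both tested procollagen N-proteinases. The 3 members that were higher were Mmp25 (log2 difference 1.64, adjusted p = 0.00097), Mmp3 (1.29, adjusted p = 0.0032) and Mmp12 (0.49, adjusted p = 0.024), and the call for Mmp12 was lost after rescaling by median ratios (0.43, adjusted p = 0.078). Mmp25 passed the filter only through the iPS libraries, where it was high. Mmp3 was also called higher at SC d14, d21, d22, d23 and d27 and at SI d22, with log2 differences of 1.21, 1.203, 1.71, 0.73, 1.17 and 1.48. Adamts7 was called higher at SC d14, d21 and d22 (1.29, 2.06 and 1.88) and in all 5 SI groups (1.40, 2.15, 2.09, 0.73 and 1.97), and lower in iPS cells (-0.80).

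At SI d23, 23.3% of the tested members were above and 13.3% below feeders, near the 21.2% and 14.6% of all genes. Those above came from all 3 kinds of gene. They were Adamts4 (log2 difference 1.70, limma adjusted p = 0.0031), Mmp12 (1.66), Adamts16 (1.49), Timp3 (1.14), Mmp9 (0.80), Adamts7 (0.73) and Adamts6 (0.47), and the members below were Adamts5 (-1.63), Timp1 (-0.99), Mmp16 (-0.52) and Mmp24 (-0.44). Adamts16 passed the filter only through SI d23, where it was high. Adamts15 was called higher at d22 in both SC (1.69) and SI clones (2.06). It passed the filter there only through the clone libraries, and at the other times it did not pass and was not tested. The counts at 3 SI times rested on individual libraries. At SI d23, 23 members were called without SI clone 3 (8 higher and 15 lower), 7 without clone 2 or clone 4, and 6, 5 and 6 without feeder 1, 2 or 3, against 11 with all libraries. The share of all genes called moved as well, from 35.8% to 65.1% without SI clone 3, to 21.5% and 19.2% without clones 2 and 4, and to 12.4%, 5.63% and 5.58% without feeders 1, 2 and 3. At SI d22, 25 were called without SI clone 3 (73% of all genes) and 9 without SI clone 2, feeder 2 or feeder 3 (42.6%, 30.2% and 29%), against 14 (54.1%). At SI d14, 0 were called without any 1 of the feeders (0.964% to 1.21% of all genes; 9 to 11 members had an unadjusted p under 0.05), and 4, 19, 20 and 3 without SI clones 1, 2, 3 and 4 (29.6%, 55%, 59.8% and 16.4%), against 11 (44.1%).

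Over the 2 days without doxycycline, members rose together in SI clones. Between SI d21 and SI d23, 20 of 26 tested members rose and 1 fell (22.7% and 32% of all genes tested). Some members, such as Adamts16, passed the filter only through SI d23, where they were high. Adamts4 rose by 2.77 on the log2 scale (limma adjusted p = 9.3e-05), Timp3 by 2.71 (adjusted p = 0.00010) and Mmp14 by 2.41 (adjusted p = 0.00049), and each of these genes was higher at d23 in 4 of 4 SI clones. All 3 tested TIMPs, both gelatinases and all 3 tested membrane-type MMPs rose. Adamts7 fell by 1.41 (adjusted p = 0.00055), in 4 of 4 clones. Mmp3 and Mmp13 did not pass the test (0.66, adjusted p = 0.30, and 1.68, adjusted p = 0.052). The sum of the 10 fibroblast markers was 720 to 1769 RPKM at SI d21 and 2295 to 4399 at SI d23. Over the same interval the smooth muscle marker sum went from 263 to 942 RPKM to 2469 to 4379, and that of the leukocyte markers from 52.0 to 120 to 169 to 322. The epithelial sum was 69.9 to 407 RPKM at SI d21 (median 333) and 117 to 2256 at SI d23 (median 1743). These 2 epithelial ranges overlapped. The part of these cell types in the increases, those of Mmp9 and Mmp12 included, was not tested. The clones are the same at both times, and with the clone as a block 23 members were called, Mmp11 and Mmp13 in addition (26.5% of all genes rose and 36.9% fell in that fit).

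In SC clones the same interval gave few calls. Between SC d21 and SC d23, Mmp25 rose by 0.81 (limma adjusted p = 0.041), from 0.12, 0.11, 0.39 and 0.60 RPKM to 1.14, 1.1, 1.8 and 1.09, and it was the only member called of 26 tested (0.985% of all genes rose and 2.81% fell, 3.79% in all). Mmp25 passed the filter only through SC d23, the group where it was high, so the filter itself favoured a rise. With the clone as a block, 4 members were called: Adamts7 fell by 2.18 (adjusted p = 0.0088), and Mmp25, Mmp17 and Mmp11 rose by 0.81, 0.64 and 0.45 (4.53% of all genes rose and 8.84% fell in that fit). Adamts7 was lower at d23 in 4 of 4 SC clones, from 46.5, 46.8, 20.7 and 14.4 RPKM to 5.92, 19.9, 3.31 and 1.90. The call for Mmp25 depended on the libraries: 0 members were called without SC clone 1 or clone 3 at either time, without clone 2 at d21 or without clone 4 at d23, and 3 without clone 2 at d23.

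**Figure D4:**
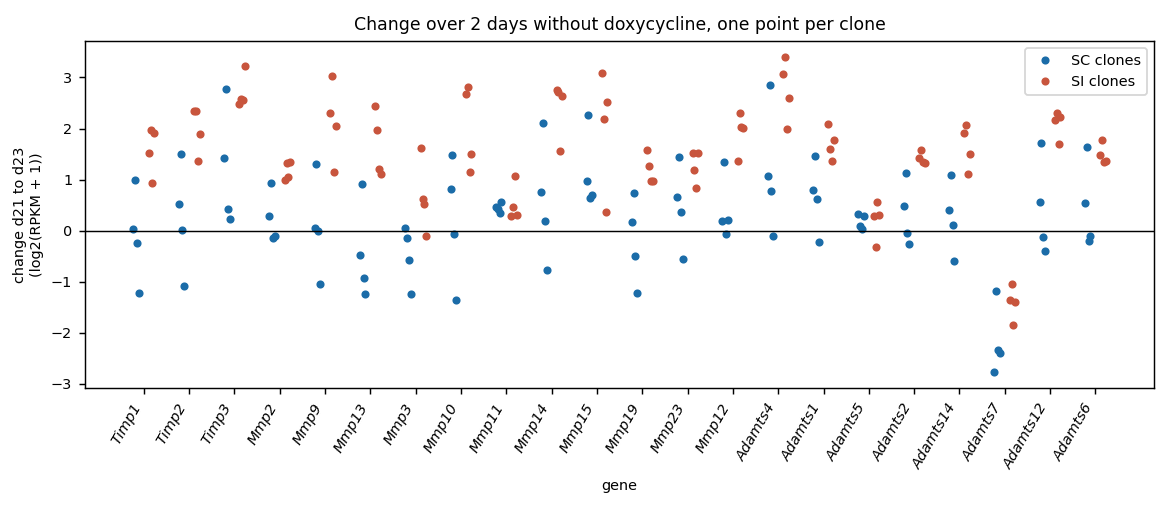
Change in log2(RPKM + 1) from d21 to d23 for 22 members, 1 point per clone (blue SC, red SI). Adamts7 is below 0 in all 8 clones, and 19 of the other genes are above 0 in all 4 SI clones; for 16 of these 19 the SC clones lie on both sides of 0.

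Whether the 2 kinds of clone changed differently was tested as an interaction. Without the clone as a block, 0 of 28 tested members were called (0% of all genes tested), and 13 had an unadjusted p under 0.05 (25.5% of all genes). With the block, 12 members had a smaller change in SC than in SI clones (10.8% of all genes had a smaller and 12.4% a larger one): Mmp13 (-2.11, limma adjusted p = 0.033), Mmp9 (-2.06), Mmp14 (-1.85), Timp2 (-1.75), Timp1 (-1.69), Adamts12 (-1.66), Mmp12 (-1.51), Mmp19 (-1.39), Adamts14 (-1.39), Adamts2 (-1.09), Adamts1 (-1.04) and Mmp2 (-0.93). Mmp14 is an example: it changed by 2.75, 2.72, 1.55 and 2.63 in SI clones 1 to 4 and by 0.76, 2.10, 0.18 and -0.77 in SC clones 1 to 4. Without the block, 16 members were called when SC clone 2 at d23 was left out and 8 when SI clone 3 at d21 was left out (32.2% and 7.85% of all genes).

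At d23 SC and SI clones differed in many members, but the count was unstable. Of 28 tested members 1 was higher in SC clones, Mmp25 (0.69, limma adjusted p = 0.027), and 15 were lower (23% and 19.5% of all genes tested). Mmp25 passed the filter only through the SC libraries, where it was high. The largest decreases in SC relative to SI clones were those of Timp3 (-2.46, adjusted p = 0.030), Adamts12 (-1.97, adjusted p = 0.027) and Mmp14 (-1.94, adjusted p = 0.028). All 3 tested TIMPs and both gelatinases were lower, and of the stromelysins none was called. No member was called without SC clone 1, 3 or 4 or without SI clone 2, 3 or 4, 2 were called without SI clone 1 (15% of all genes), and 20 without SC clone 2 (65.3% of all genes). In the fits with 0 members called, at most 0.0755% of all genes were called and 16 to 19 members had an unadjusted p under 0.05; with no filter on low values 8 were called. SC clone 2, with a fibroblast sum of 2300 RPKM, had the highest Timp1, Timp3 and Mmp14 of the SC clones at d23. Timp3 was at 33.5, 109, 17.99 and 6.37 RPKM in SC clones 1 to 4. The pluripotency marker sum of SC clone 2 at d23 was 142 RPKM, against 650, 931 and 1149 in SC clones 1, 3 and 4.

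At the other times no member was called between SC and SI clones by limma: at d14, d21 and d22 0% of all genes were called, and at d27 0.382% were higher and 0.252% lower (0.634% in all). At d21 Mmp3 was higher in SC clones by 1.58 on the log2 scale without passing the test (adjusted p = 0.32), with SC libraries at 184 to 366 RPKM and SI libraries at 29.0 to 157, which do not overlap. At d22 Timp3 had a difference of -1.44 (adjusted p = 0.10), and at d27 Mmp3 one of 0.98 (adjusted p = 0.17). At an unadjusted p under 0.05 the counts were 0 of 26, 6 of 24, 6 of 27 and 9 of 24 at d14, d21, d22 and d27, against 1.44%, 13.4%, 34.8% and 23.1% of all genes. Without SC clone 2, 4 members were called at d22 and 6 at d27, in fits that called 34.1% and 23.9% of all genes.

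With continued doxycycline most tested members fell in SC clones. Between SC d14 and SC d27, 19 of 26 tested members fell and 0 rose (21.9% and 22.5% of all genes tested), among them Adamts1 (-1.60, limma adjusted p = 0.0022), Mmp23 (-1.58) and Timp3 (-1.50). The fibroblast marker sum was 1419 to 2866 RPKM at SC d14 and 524 to 659 at SC d27; its part in the decreases was not tested. Mmp3, Adamts7 and Mmp12 had differences of -0.04, 0.11 and 0.20 and were not called. Between SI d14 and SI d27 0 of 24 tested members were called by limma (0% of all genes), 9 had an unadjusted p under 0.05 (20.6% of all genes), with Adamts1 at -1.17 (adjusted p = 0.23), and 11 were called without SI clone 1 at d14 (27.5% of all genes). Between SC d27 and iPS cells, which differ in the last 6 days, 0 of 26 tested members were called by limma (0.42% of all genes higher and 1.2% lower), and 7 had an unadjusted p under 0.05 (29.9% of all genes). With the clone as a block 3 were called, Adamts7 (-2.21, adjusted p = 0.033), Mmp25 (1.21, adjusted p = 0.017) and Adamts9 (1.00, adjusted p = 0.027), in a fit where 4.21% of all genes were higher and 7.77% lower. Mmp25 and Adamts9 passed the filter through the iPS libraries, where they were high. Without the block, 9 were called when SC clone 2 as iPS cells was left out and 5 when SC clone 4 at d27 was left out (15% and 23% of all genes).

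The balance of enzymes and inhibitors differed between the groups, as a description on the RPKM scale. The TIMP genes held 63.2% ± 1.59 of the family's summed RPKM in feeders (SD, n = 3), 30.8% ± 1.14 in iPS cells, 52.0% ± 2.80 at SI d23 and 36.1% ± 6.18 at SC d23 (all SD, n = 4). The ratio of Mmp3 to Timp1 RPKM was 0.108 ± 0.0149 in feeders, 1.69 ± 0.117 in iPS cells and 0.272 ± 0.101 at SI d23. The ratio of Mmp14 to Timp2, whose proteins form a complex on the cell surface, varied less, from 0.652 ± 0.0882 at SC d27 to 1.24 ± 0.304 at SI d23, with 0.871 ± 0.0183 in feeders.

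The 22 members named by level were also set beside the fibroblast markers, library by library. For each clone library the ratio of a gene to its feeder mean was compared with the median of the same ratio over the 10 fibroblast markers. Adamts7, Mmp3, Mmp12 and Mmp19 were above the marker ratio in 44 of 44 clone libraries, with median ratios of ratios of 8.66, 5.93, 3.68 and 1.68. Adamts1 was below it in all 44, at a median of 0.603. Adamts5 was above it in 1 and Adamts12 in 5. The medians of Timp1, Timp2, Timp3 and Mmp14 lay somewhat below 1, at 0.895, 0.973, 0.845 and 0.922. These genes were above the marker ratio in 11, 19, 18 and 13 of the 44 libraries. Those of Mmp23, Adamts14 and Adamts2 lay somewhat above 1, at 1.035, 1.078 and 1.129. In single libraries Timp3 ranged from 0.376 to 3.47 and Adamts14 from 0.322 to 3.32. Libraries and feeders are shared by all genes in this description, so it carries no test.

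**Figure D5:**
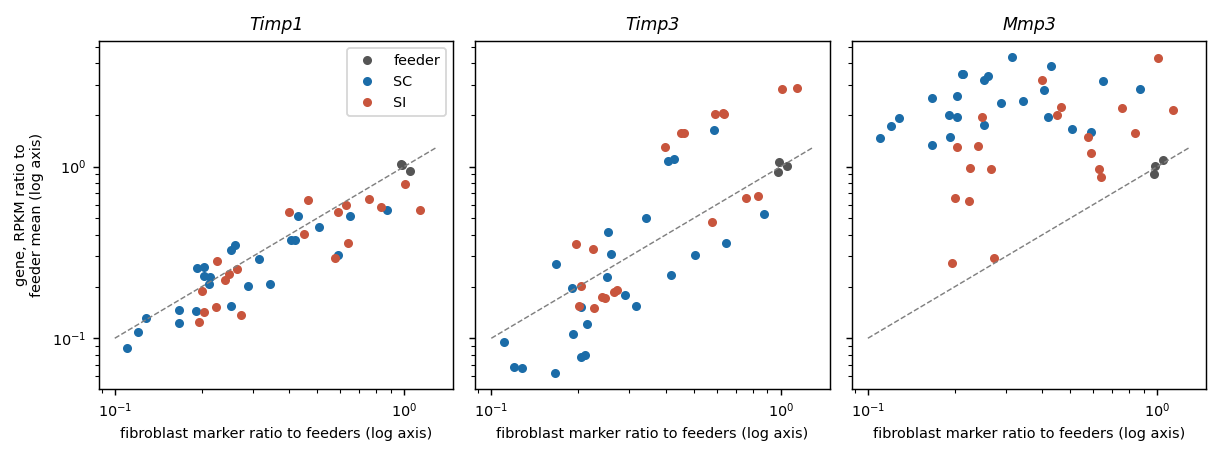
Ratio to the feeder mean of Timp1, Timp3 and Mmp3 (vertical, log axis) against the median ratio of 10 fibroblast markers (horizontal, log axis), 1 point per library (grey feeder, blue SC, red SI); the dashed line marks equal ratios. Timp1 clone points lie on both sides of the line, 11 of 44 above it, and all 44 clone points of Mmp3 lie above it.

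Genes that act with the family moved with many of its members. At SI d23 against feeders more of these genes were lower than higher. Of the tested members, 23.3% were higher and 13.3% lower there, near the shares of all genes. That count of members rested on single libraries, and without SI clone 3 more members were lower than higher. The list held 54 genes: ADAM sheddases, ADAMTS-like proteins, tolloid proteinases, the plasminogen system, proprotein convertases, clearance receptors, matrix substrates, AP-1 and Ets transcription factors, and the regulators Reck and Bsg. In iPS cells against feeders, 1 of 47 tested was higher and 44 lower (41.2% and 38.8% of all genes tested), among them the plasminogen activators Plat (-2.66) and Plau (-2.22) and the furin gene (-1.64). At SI d23 against feeders, 3 of 48 were higher and 11 lower (21.2% and 14.6% of all genes), and from SI d21 to SI d23, 34 of 46 rose and 2 fell (22.7% and 32% of all genes). All 9 AP-1 and Ets factors rose in that interval, among them Jun (2.17, limma adjusted p = 0.00011), Ets1 (1.94) and Junb (1.48). At d23, 35 of 46 were lower in SC than in SI clones and 0 were higher (19.5% and 23% of all genes), among them Fosl2 (-1.69) and Plau (-1.57). The pathway genes come from the same libraries as the members and are not independent of them. The substrates Col1a1, Col1a2, Col3a1 and Dcn are also among the fibroblast markers used above.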

How the data were processed

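The deposited table gives 22632 genes in 47 libraries as RPKM with 2 decimals; that unit was inferred from the values, and no label or header says how the authors counted reads or whether strand was used. CASAVA 1.8 and mm9 are named, without a role, in the submitters' processing notes, which say nothing more on how the deposited RPKM were made. Libraries were made with Illumina TruSeq from column-purified RNA, per the labels' protocols. Days with and without doxycycline follow the sample characteristics, from which the treatment text differs for d22 and d23. Coordinates and promoters are GRCm38, used only for position and sequence.

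Tests used limma 3.58.1 in R 4.3.3 (trended variance) on log2(RPKM + 1), fitted for each comparison on its own libraries, after a filter of 1 RPKM in as many libraries as the smaller group, with Benjamini-Hochberg adjustment over all genes tested, two-sided, at 0.05. Log2 differences on this scale understate changes of low genes. Scripts were tested on simulated data. Alternatives were a pseudocount of 0.1, no filter, median-ratio rescaling, a replicate block and each library left out. Same-clone pairs come from clone names in the titles: the lowest correlation of paired deviations was 0.50 (SC) and 0.34 (SI) for d23 and d21, 0.20 for iPS cells and SC d27, and -0.03 (SC) and -0.28 (SI) for d27 and d14. Members and lists were chosen with earlier results of these data known. Members were named by rule: in each role up to 3 with a highest group mean of at least 5 RPKM (22 in all), and in any comparison up to 3 called members with the largest difference in each direction; others are given by range and count.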

Additional observations from a re-analysis of the deposited data

Results flagged for a closer look

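A library was singled out where its gap to the nearest other library of its group was large for the group's range by Dixon's 95% criterion. This held for 34 of 242 sets of a gene and a group. Chance gives about 1 in 20 for a single set, but the sets share libraries and 1 library can be singled out in many genes. The count can therefore not be weighed against that rate. Most of them belong to libraries whose fibroblast marker sum also stood apart; the part of that in these values was not tested.

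SC clone 2 as iPS cells was the highest of its group in Adamts1 (4.87 RPKM, others 1.67 to 1.94), Adamts12 (1.47), Adamts2 (3.24), Mmp19 (10.88), Mmp2 (49.31), Mmp9 (28.77), Timp2 (89.68) and Timp3 (10.25). Its fibroblast sum was 888 RPKM, against 349 to 422 in the other iPS libraries.

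SI clone 3 was the highest at d21 in Adamts1 (8.44), Adamts2 (8.73), Adamts4 (4.4), Mmp14 (76.39), Mmp23 (6.74), Timp1 (285.13) and Timp2 (110.9). At d22 it was the highest in Adamts1 (15.88), Adamts12 (13.52), Adamts14 (5.7), Adamts2 (21.53), Adamts5 (3.78), Mmp14 (207.39), Mmp2 (179.31), Mmp23 (14.67) and Timp2 (279.85). At d23 it was the highest in Adamts1 (23.31), Mmp13 (156.81), Mmp2 (150.65) and Timp3 (190.36), all in RPKM.

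At SC d23 clone 2 was the highest in Mmp12 (4.26) and Mmp15 (5.18). At SC d22 clone 1 was the highest in Mmp10 (64.48) and Mmp15 (0.79), at SC d21 clone 3 was the lowest in Adamts4 (2.06), and at SC d14 clone 3 was the lowest in Mmp9 (36.31).

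For 12 genes the change from d21 to d23 differed between SC and SI clones in the test of the interaction with the clone as a block. The SC minus SI differences on the log2 scale were -1.04 for Adamts1, -1.66 for Adamts12, -1.39 for Adamts14, -1.09 for Adamts2, -1.51 for Mmp12, -2.11 for Mmp13, -1.85 for Mmp14, -1.39 for Mmp19, -0.93 for Mmp2, -2.06 for Mmp9, -1.69 for Timp1 and -1.75 for Timp2. None of the 12 passed without the block.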

How the results depend on the processing

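With a pseudocount of 0.1 or median-ratio rescaling, all 22 counts of members called stayed within 1.5 times; with no filter all did but SC against SI at d23, 8. With the replicate block the counts were 0 for SI d14, 8 for SI d22 and 4 for SI d23 against feeders, and 7 for SC against SI at d23. Feeders and clones, and SC and SI clones, share only replicate numbers, so there the block pairs unrelated libraries. Where the block pairs the same clones, the counts were 4 for SC d23 against d21, 3 for iPS cells against SC d27 and 12 for the interaction. The block moved no other count by over 1.5 times. The cause was not tested.

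Leaving out 1 library gave 0 to 20 calls for SI d14, 9 to 25 for SI d22 and 5 to 23 for SI d23 against feeders, 0 to 4 for SC against SI at d22, 0 to 20 at d23 and 0 to 6 at d27, 0 to 3 for SC d23 against d21, 0 to 11 for SI d27 against d14, 0 to 9 for iPS cells against SC d27 and 0 to 16 for the interaction.

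Signs turned only for small differences. For SI d23 against feeders, Mmp19 was -0.032 after rescaling, and Adamts2, Mmp14 and Adamts12 were 0.10, 0.031 and 0.045 with the block. For iPS cells against SC d27, Adamts1 was 0.0060 after rescaling, and for the interaction Adamts5 was 0.064 with a pseudocount of 0.1. With 1 library left out, the ranges for SI d23 against feeders were -0.19 to 0.060 (Adamts12), -0.31 to 0.10 (Adamts2), -0.19 to 0.11 (Mmp10), -0.088 to 0.039 (Mmp14) and -0.12 to 0.14 (Mmp19). For iPS cells against SC d27 they were -0.32 to 0.055 (Adamts1), -0.12 to 0.16 (Adamts4), -0.56 to 0.018 (Mmp10), -0.51 to 0.038 (Mmp13), -0.39 to 0.028 (Mmp14), -0.21 to 0.13 (Mmp2), -0.081 to 0.16 (Mmp23) and -0.16 to 0.33 (Mmp3). They were -0.13 to 0.43 for Adamts5 in SI d23 against d21, -0.049 to 0.38 for Mmp11 in SC against SI at d23, and -0.25 to 0.31 (Adamts5) and -0.24 to 0.18 (Mmp11) for the interaction.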
